A study of Mus musculus with 6 samples.

Results

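The genes described here are Runx1, Runx2 and Runx3, which encode the RUNX transcription factors, Cbfb, which encodes their shared partner, Trps1, which encodes a zinc finger repressor of cartilage, and Sp7, which encodes osterix, a factor that bone-forming cells need after RUNX2. They were chosen by name, taking each non-control probe that the array design assigns to 1 of these 6 genes, which gave 11 of 55681 probes, for 6 of the 36406 names that the design gives to such probes. Runx1, Runx2 and Runx3 had 2 probes each, Trps1 had 3, and Cbfb and Sp7 had 1 each. Gene expression was measured on 6 Agilent 1-colour arrays, with 3 samples of Sox9-EGFP positive cells and 3 samples of Sox9-EGFP negative cells. Both groups were sorted by flow cytometry from the forelimb autopod mesenchyme, the tissue of the future hand plate, of C57BL/6 embryos at stage E11.5. Both carried the same knock-in of EGFP at the Sox9 locus, so the groups differ in reporter fluorescence and not in genotype. Each sample pooled the autopods of about 10 limbs, and the RNA input stands at 100 ng in the extraction protocol but 75 ng in that of the labelling. The labels do not say whether the samples came from separate litters or sorts, so the p-values measure the spread between these samples, which may be technical.

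RUNX proteins bind DNA through the Runt domain and do so stably only as dimers with CBFB, which does not bind DNA itself. In the mouse skeleton RUNX2 starts bone formation and drives cartilage cells into hypertrophy, RUNX3 shares part of the work in hypertrophy, and RUNX1 is known from blood stem cells and from early cartilage precursors. TRPS1 is a GATA-type zinc finger protein that represses transcription, and its loss in humans causes trichorhinophalangeal syndrome, with short fingers and cone-shaped growth plates.

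Sox9, the gene that carries the reporter and the master factor of cartilage, had a log2 difference of 4.37 ± 0.20 (SE, 3 arrays a group), 20.7-fold higher in the positive cells (limma adjusted p = 0.000513). Signals are given as log2 of the processed intensity relative to the 75th percentile of the same array. That percentile lay at 125.5 on the array of positive replicate 1 and between 384.5 and 478.4 on the other 5 arrays. The faintest signal well above background was accordingly −2.73 on positive replicate 1 and −4.77 to −4.53 on the others, so faint probes have only an upper bound on positive replicate 1. Summed over 10 markers of cartilage condensations, the signal was 309 to 341 in positive and 66.3 to 91.2 in negative samples, in multiples of the 75th percentile. Summed over 9 markers of distal limb mesenchyme, it was 94 to 102 in positive and 344 to 359 in negative samples. All 9 were well above background on each of the 6 arrays. Most of the cartilage sum in negative samples came from Sox5, with a mean of 6.06 there. Sox5 did not pass between groups (0.32, limma adjusted p = 0.470), so the cartilage sums of negative samples say little about the other cartilage markers. In positive samples the brightest was Col2a1, with a mean of 7.34 there and 2.16 in negative samples. Of the 10 cartilage markers, 7 were called higher and 1 lower in positive cells.

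The 11 probes are 60-base oligonucleotides, named below by gene and a letter in the order of their position in the mm9 build. Runx1-a (chr16:92604413-92604472) and Runx1-b (chr16:92605785-92605844) lie on the minus strand. Runx2-a (chr17:44744925-44744984) and Runx2-b (chr17:44951128-44951187) also lie on the minus strand, 206 kb apart. Runx3-a (chr4:134731959-134732018), Runx3-b (chr4:134733846-134733905) and the Cbfb probe (chr8:107741792-107741851) lie on the plus strand. Trps1-a (chr15:50486813-50486872), Trps1-b (chr15:50490034-50490093), Trps1-c (chr15:50492241-50492300) and the Sp7 probe (chr15:102187692-102187751) lie on the minus strand. An exon annotation of mm9 was not used here.

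Among the 11, 3 sequences are shown because the results turn on them. Trps1-c is the probe that passed the test, and the Runx2 probes lie far apart in the Runx2 region. Each is written in the sense direction of its gene, which is the minus strand of mm9. Runx2-b is printed from base 13 of the probe, and its capitals mark a start codon, that of the RUNX2 isoform made from the distal promoter.
Trps1-c: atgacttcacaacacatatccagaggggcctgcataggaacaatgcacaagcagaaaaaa
Runx2-a: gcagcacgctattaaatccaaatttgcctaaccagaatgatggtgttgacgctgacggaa
Runx2-b: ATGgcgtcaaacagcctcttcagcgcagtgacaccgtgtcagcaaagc
The array design lists 1 RefSeq transcript for Runx2-a that it does not list for Runx2-b, so they need not read the same transcripts.

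The test took a probe where either group had it well above background on its 3 arrays. Of the 11 probes, 9 were tested and 5 were well above background on all 6 arrays, namely those of Cbfb and Trps1 and Runx1-b. Of the 9 tested, 1 passed a limma adjusted p of 0.05, Trps1-c, which was higher in positive cells. Of all 26473 probes tested, 21.6% passed, 7.96% higher and 13.7% lower in positive cells. In 5 of the 9, the 3 arrays of positive cells all lay on the same side of the 3 arrays of negative cells, where this held for 43.2% of all probes tested, with signals not well above background taken at their measured value. The median difference over all probes tested was −0.10.

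**Figure D1:**
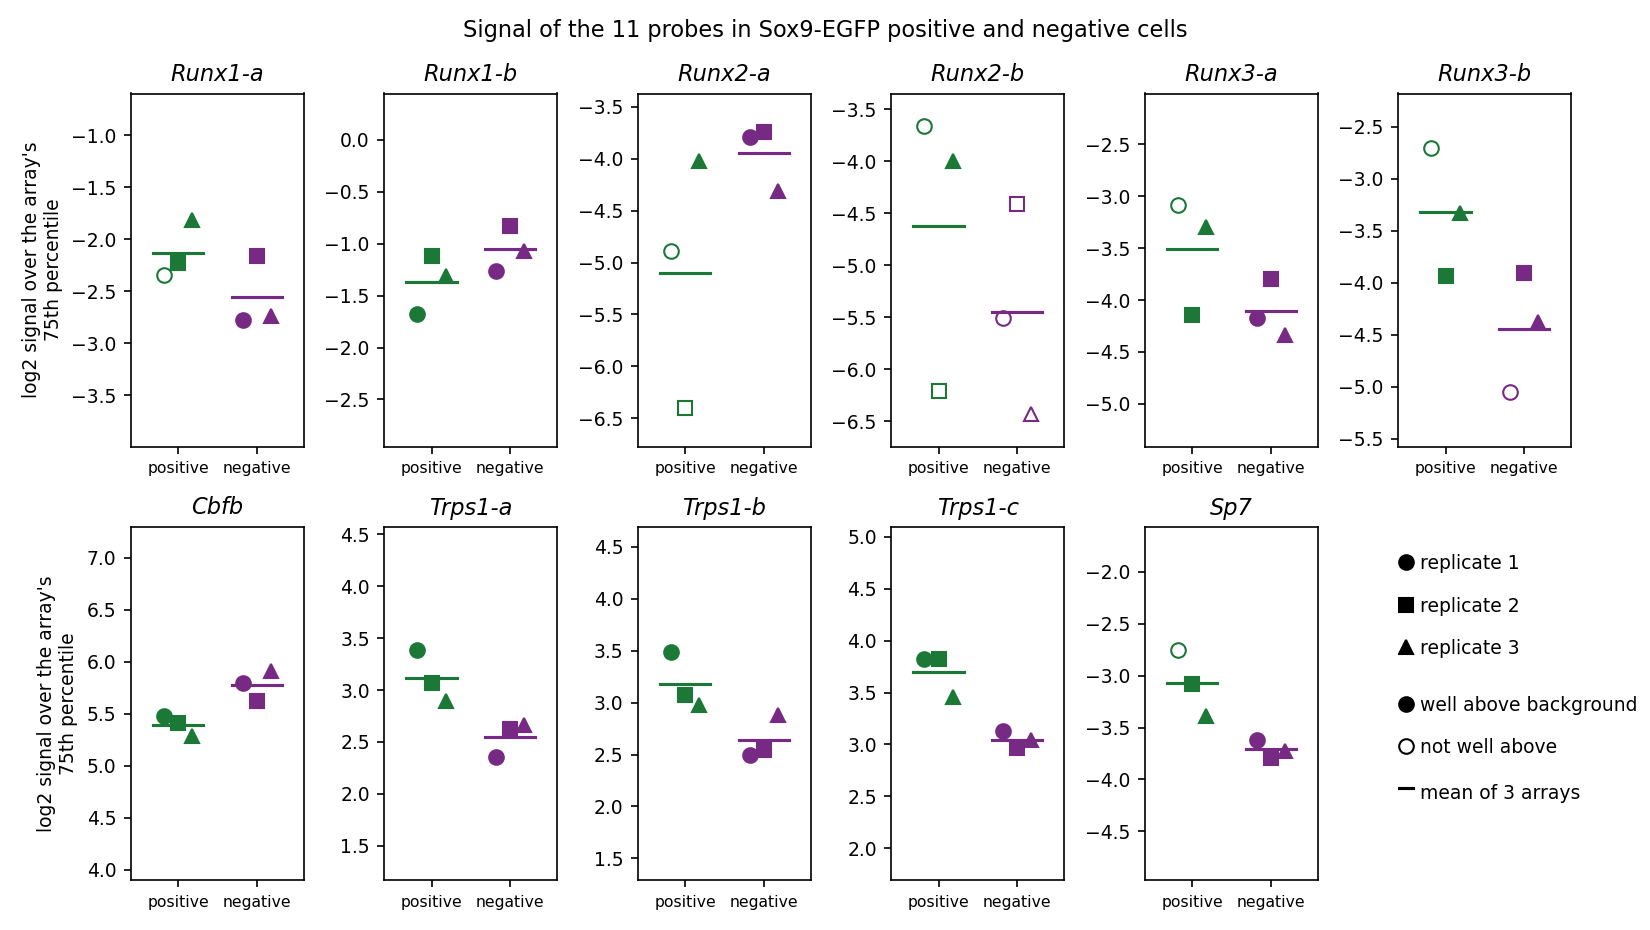
Log2 signal relative to the 75th percentile of the array for each of the 11 probes on the 3 arrays of Sox9-EGFP positive cells (left, green) and the 3 of negative cells (right, purple); symbols stand for replicate numbers, open symbols for signals not well above background, and bars for the mean of 3 arrays. Each panel has its own axis of the same length; the 3 Trps1 probes lie higher in positive cells without overlap, Sp7 does so on the arrays of positive replicates 2 and 3, its symbol for replicate 1 being open, Cbfb lies lower without overlap, and the Runx1, Runx2 and Runx3 panels overlap.

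Trps1 was measured by all 3 of its probes on all 6 arrays. Trps1-c gave 3.82, 3.82 and 3.46 in positive cells, against 3.13, 2.96 and 3.05 in negative cells. All 3 positive samples were above all 3 negative samples. The difference was 0.66 ± 0.15 (SE), or 1.58-fold, with a 95% confidence interval of 0.29 to 1.02 and a limma adjusted p of 0.0294. In bulk RNA of sorted cells, more cells that express a gene and more RNA per cell cannot be told apart.

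The other Trps1 probes gave the same order of groups. Trps1-a gave 3.38, 3.06 and 2.90 in positive cells, against 2.36, 2.62 and 2.66 in negative cells, a difference of 0.57 ± 0.18 (SE, 1.48-fold) with a limma adjusted p of 0.0686. Trps1-b gave 3.49, 3.07 and 2.97 in positive cells, against 2.49, 2.55 and 2.88 in negative cells, a difference of 0.54 ± 0.19 (SE, 1.45-fold) with a limma adjusted p of 0.0998. The groups did not overlap for either probe, and neither passed the threshold. These 3 probes read the same transcript within a few kilobases and are not replicates of the comparison. Whether they differed from each other was tested with limma's diffSplice, which sets each probe against the other probes of its gene. None of the 3 Trps1 probes passed in diffSplice, at unadjusted p of 0.633 to 0.886, where 0.235% of 11934 probes on the array did.

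A slide carried 1 positive and 1 negative array, so the 3 slides each give a difference of their own. For Trps1-c it was 0.86, 0.78 and 0.34 on the slides 1, 2 and 3. For Trps1-a it was 0.76, 0.40 and 0.54, and for Trps1-b 0.94, 0.19 and 0.48. All 9 of these differences were above 0. With slide as a block, Trps1-c had a limma adjusted p of 0.046, Trps1-a of 0.0458 and Trps1-b of 0.0977.

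The call for Trps1 depended on the scaling and on single arrays. After quantile normalization all 3 probes passed, with differences of 0.82, 0.79 and 0.94 for Trps1-a, Trps1-b and Trps1-c. They also passed after normexp background correction with quantile normalization, at 0.81, 0.77 and 0.91, and in the authors' own log2 values, at 0.80, 0.78 and 0.90. Without positive replicate 1, Trps1-c passed at 0.60 with a limma adjusted p of 0.0477. Trps1-c no longer passed without positive replicate 2 (limma adjusted p = 0.0859), without negative replicate 1 (0.0898), without negative replicate 2 (0.083) or without negative replicate 3 (0.101), while its difference stayed between 0.60 and 0.70 in those fits.

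**Figure D2:**
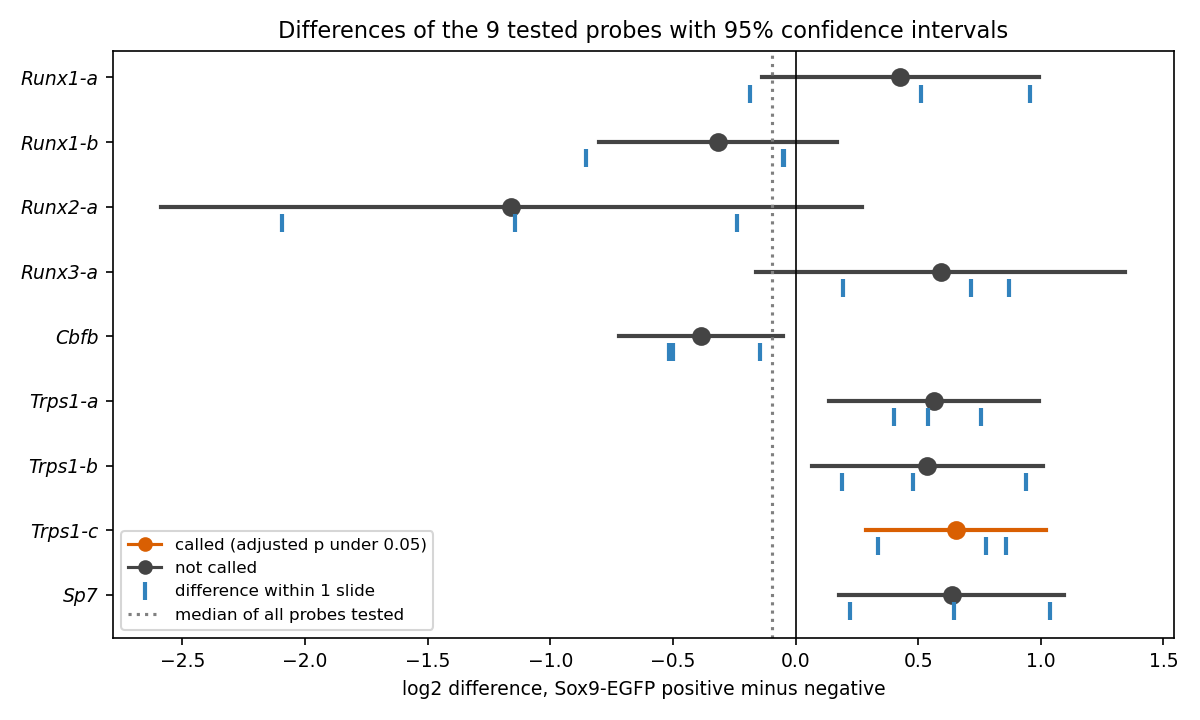
Log2 difference, Sox9-EGFP positive minus negative, of the 9 tested probes with 95% confidence intervals (bars) and the difference within each of the 3 slides (blue ticks); orange marks a limma adjusted p under 0.05, and the dotted line is the median of all probes tested. Trps1-c at 0.66 is the only orange probe, and the interval of Runx2-a spans −2.59 to 0.27.

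TRPS1 is known to regulate genes of the growth plate and the joint, and to work with histone deacetylases. Of 11 partners and target genes, all of them measured, 2 were higher and 2 lower in positive cells, with a median difference of −0.20, where 8.52% of 13197 genes were higher, 18.2% were lower and the median over all genes was −0.18. The higher genes were Sox9, whose direction follows from the sort, and Gdf5, a growth factor of forming joints, at 1.25 ± 0.34 (SE, limma adjusted p = 0.0464). Wif1, a secreted Wnt inhibitor, fell by 3.67 (adjusted p = 0.000513, limma), and Rnf4, a RING finger protein that binds TRPS1, fell by 0.72 (adjusted p = 0.0428). Without positive replicate 1 the counts were 1 and 1, since Gdf5 (adjusted p = 0.0655) and Rnf4 (adjusted p = 0.0707) no longer passed. Neither passed without positive replicate 3 (Gdf5 0.135, Rnf4 0.129) or without the negative replicates 1, 2 or 3 (Gdf5 0.085, 0.12 and 0.149, Rnf4 0.103, 0.0796 and 0.137). Gli3, Stat3, Hdac1, Hdac4, Dynll1, Ihh and Pthlh did not pass, with Gli3 at 0.09 and Hdac1 at −0.33. The median of the list was −0.28, −0.22 and 0.07 on the slides 1, 2 and 3.

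TRPS1 shares its DNA-binding finger with the GATA factors. Of 8 GATA factors and FOG cofactors, 5 were measured. In positive cells 1 (20%) was higher and 0 were lower, beside 8.52% and 18.2% over all genes. The higher was Gata6, at 1.47 ± 0.24 (SE, limma adjusted p = 0.0103), on 2 of 3 positive and all 3 negative arrays well above background. Gata6 did not pass after quantile normalization (adjusted p = 0.0838) or without negative replicate 3 (adjusted p = 0.0507). Gata6 was higher and Gata1 lower with slide as a block, and also without positive replicate 1. Gata1, a factor of red blood cells, was not well above background on any positive array and did not pass (limma adjusted p = 0.0665). It was at least 1.62-fold lower there, which rested on negative replicate 2, at −1.65 against −4.20 and −4.26 in negative replicates 1 and 3. Without negative replicate 2 no fold could be given, and without positive replicate 1 it was at least 2.56-fold. The list's median was −0.06, and −0.06, −0.06 and −0.07 on the slides 1, 2 and 3.

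Cbfb, the partner that all 3 RUNX proteins share, had processed intensities of 5580 to 28800 on the 6 arrays. Its probe gave 5.48, 5.42 and 5.28 in positive cells, against 5.80, 5.62 and 5.91 in negative cells. All 3 positive samples were below all 3 negative samples. The difference was −0.39 ± 0.14 (SE, n = 3 per group), with a 95% confidence interval of −0.72 to −0.05, an unadjusted p of 0.0299 and a limma adjusted p of 0.0962. On the slides 1, 2 and 3 it was −0.14, −0.50 and −0.52, and the fit with slide as a block gave a limma adjusted p of 0.111. After quantile normalization the difference of Cbfb was −0.03 (adjusted p = 0.89), after normexp with quantile normalization −0.02 (adjusted p = 0.908), and in the authors' own log2 values −0.04 (adjusted p = 0.827). Centring on the median of the tested probes gave −0.38 (adjusted p = 0.0966). The difference of Cbfb thus passed under none of these scalings. It was near 0 after quantile normalization, with or without normexp, and in the authors' own log2 values.

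Runx1 was measured by a pair of probes whose differences had opposite signs. Runx1-a gave −2.34, −2.23 and −1.82 in positive cells, against −2.77, −2.16 and −2.74 in negative cells, and was not well above background on positive replicate 1. Runx1-b gave −1.68, −1.12 and −1.31 in positive cells, against −1.26, −0.83 and −1.07 in negative cells. The groups overlapped for both probes.

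The difference of Runx1-a was 0.43 ± 0.23 (SE, limma adjusted p = 0.2403), and that of Runx1-b was −0.32 ± 0.20 (SE, limma adjusted p = 0.307). Set against each other in diffSplice, the probes differed by 0.74 with an unadjusted p of 0.0391 and an adjusted p of 0.662. With 2 probes this is 1 contrast, so both share these p-values. In diffSplice 0 of the 5 probes of Runx1 and Trps1 passed. Within the slides 1, 2 and 3, Runx1-a gave −0.18, 0.51 and 0.96, and Runx1-b gave −0.85, −0.05 and −0.05. In the fit with the slide block the limma adjusted p was 0.253 for Runx1-a and 0.311 for Runx1-b. After quantile normalization Runx1-a was at 0.15 and Runx1-b at −0.50, and in the mean of both probes the sign of Runx1-b turned, at 0.06 (adjusted p = 0.867).

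Runx1 is also expressed in blood cells and macrophages. Summed over 18 markers of these cells, the signal was 33.2, 13.2 and 12.2 in positive replicates 1, 2 and 3, against 10.2, 68.6 and 7.75 in negative replicates 1, 2 and 3, in multiples of the 75th percentile. Most of the sum in each positive sample came from Itgam, at 4.64, 3.18 and 2.78 in positive replicates 1, 2 and 3. The positive sums thus say little about the other markers. Negative replicate 2 stood apart: the macrophage genes Tyrobp and Cx3cr1 were at 2.08 and 2.34 there, against −6.35 and −6.44 in negative replicate 1. Both Runx1 probes were at their highest among the negative samples in that replicate. Without it, Runx1-a had a difference of 0.63 (limma adjusted p = 0.105) and Runx1-b of −0.20 (adjusted p = 0.554), and the part of these cells in the values of Runx1 was not tested further. Of the 18 markers 9 passed the filter. In positive cells 0 of these were higher and 1 was lower, beside 8.52% and 18.2% over all genes. The lower was Pf4 of platelets and macrophages, by at least 11.4-fold (limma adjusted p = 0.00626), which entered the test only through the negative group. That bound was 7.29-fold without negative replicate 2 and 18.1-fold without positive replicate 1. The brightest were the integrin chain Itgam, with means of 3.53 in positive and 2.12 in negative cells, and the receptor Kit, with means of 0.70 in positive and 1.24 in negative cells.

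Runx2 was near background in both groups, with processed intensities of 4.24 to 32.5 for Runx2-a. Runx2-a gave −4.89, −6.40 and −4.02 in positive cells, against −3.79, −3.74 and −4.31 in negative cells. It was well above background on 1 of 3 positive and on 3 of 3 negative arrays, so it entered the test only through the negative group. The groups overlapped, since positive replicate 3 lay above negative replicate 3. On the measured signals the difference was −1.16 ± 0.59 (SE), with a 95% confidence interval of −2.59 to 0.27. The limma adjusted p was 0.211. Positive replicates 1 and 2 have only upper bounds, as the faintest signals well above background there were −2.73 and −4.69. With those arrays set to these limits, no fold or direction could be given. On the slides 1, 2 and 3 the measured difference was −1.15, −2.09 and −0.24, with a limma adjusted p of 0.0831 with slide as a block. The values of slides 1 and 2 take in those undetected signals.

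The size of the Runx2-a difference moved with the processing. It was −1.74 after quantile normalization and −0.28 both after normexp with quantile normalization and in the authors' own log2 values, and it was −0.51 at its smallest when 1 array was left out. None of these fits passed the threshold. Runx2-b, the probe with the distal start codon, gave −3.66, −6.21 and −3.99 in positive cells, against −5.51, −4.41 and −6.43 in negative cells. It was well above background on positive replicate 3 alone and was not tested.

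A further probe in the Runx2 region shows how the locus is covered. It is named for the transcript ENSMUST00000097320, lies on the plus strand between the 2 Runx2 probes (chr17:44874486-44874545) and thus opposite to the Runx2 strand. It gave −1.89, −2.51 and −2.74 in positive cells, against −1.58, −1.31 and −1.53 in negative cells, with no overlap between the groups. Its difference was −0.90 ± 0.24 (SE, limma adjusted p = 0.0445). It did not pass without positive replicate 2 (adjusted p = 0.111), without positive replicate 3 (0.121) or without the negative replicates 1, 2 or 3 (0.115, 0.116 and 0.124). Another probe (chr17:44633034-44633093), described in the file as a Runx2 transcript but listed under another name, was not among the 11 and did not pass the filter.

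Runx3 was likewise faint. Runx3-a gave −3.08, −4.15 and −3.30 in positive cells, against −4.17, −3.80 and −4.34 in negative cells, and was well above background on 2 of 3 positive and 3 of 3 negative arrays. The groups overlapped, since positive replicate 2 lay at the level of the negative samples. On the measured signals the difference was 0.59 ± 0.31 (SE, limma adjusted p = 0.224). It was 0.72, 0.19 and 0.87 on the slides 1, 2 and 3, where the slide block gave an adjusted p of 0.0731. The value of slide 1 takes in positive replicate 1, where Runx3-a was not well above background and has only an upper bound. Without that array the difference was 0.38 (limma adjusted p = 0.392). It was 0.25 after quantile normalization and 0.06 after normexp with quantile normalization. Runx3-b gave −2.71, −3.93 and −3.32 in positive cells, against −5.05, −3.91 and −4.38 in negative cells. It was well above background on 2 arrays of each group and was not tested.

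Sp7 had processed intensities of 18.7 to 47.9. It gave −2.75, −3.08 and −3.39 in positive cells, against −3.62, −3.79 and −3.73 in negative cells, and was not well above background on positive replicate 1, where the value is an upper bound. Positive replicates 2 and 3 were above all 3 negative samples, and no order can be given for positive replicate 1. With its measured value taken in, the difference was 0.64 ± 0.19 (SE, 1.55-fold), with a 95% confidence interval of 0.18 to 1.10 and a limma adjusted p of 0.0604. Without positive replicate 1 it was 0.47 (adjusted p = 0.0749). On the slides 1, 2 and 3 it was 1.04, 0.65 and 0.22, with an adjusted p of 0.0751 with slide as a block. It was 0.29 after quantile normalization (adjusted p = 0.473) and 0.14 after normexp with quantile normalization (adjusted p = 0.481), and it passed neither there nor with any 1 array left out.

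Weighting the arrays by their quality in the fit gave more calls, 9598 over all probes. Of the 9 probes 5 passed, namely Trps1-c (0.58, limma adjusted p = 0.0177), Trps1-a (0.55, adjusted p = 0.0271), Cbfb (−0.44, adjusted p = 0.025), Sp7 (0.48, adjusted p = 0.0404) and Runx1-a (0.62, adjusted p = 0.0455). Cbfb, Sp7 and Runx1-a passed in no other fit that was run.

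**Figure D3:**
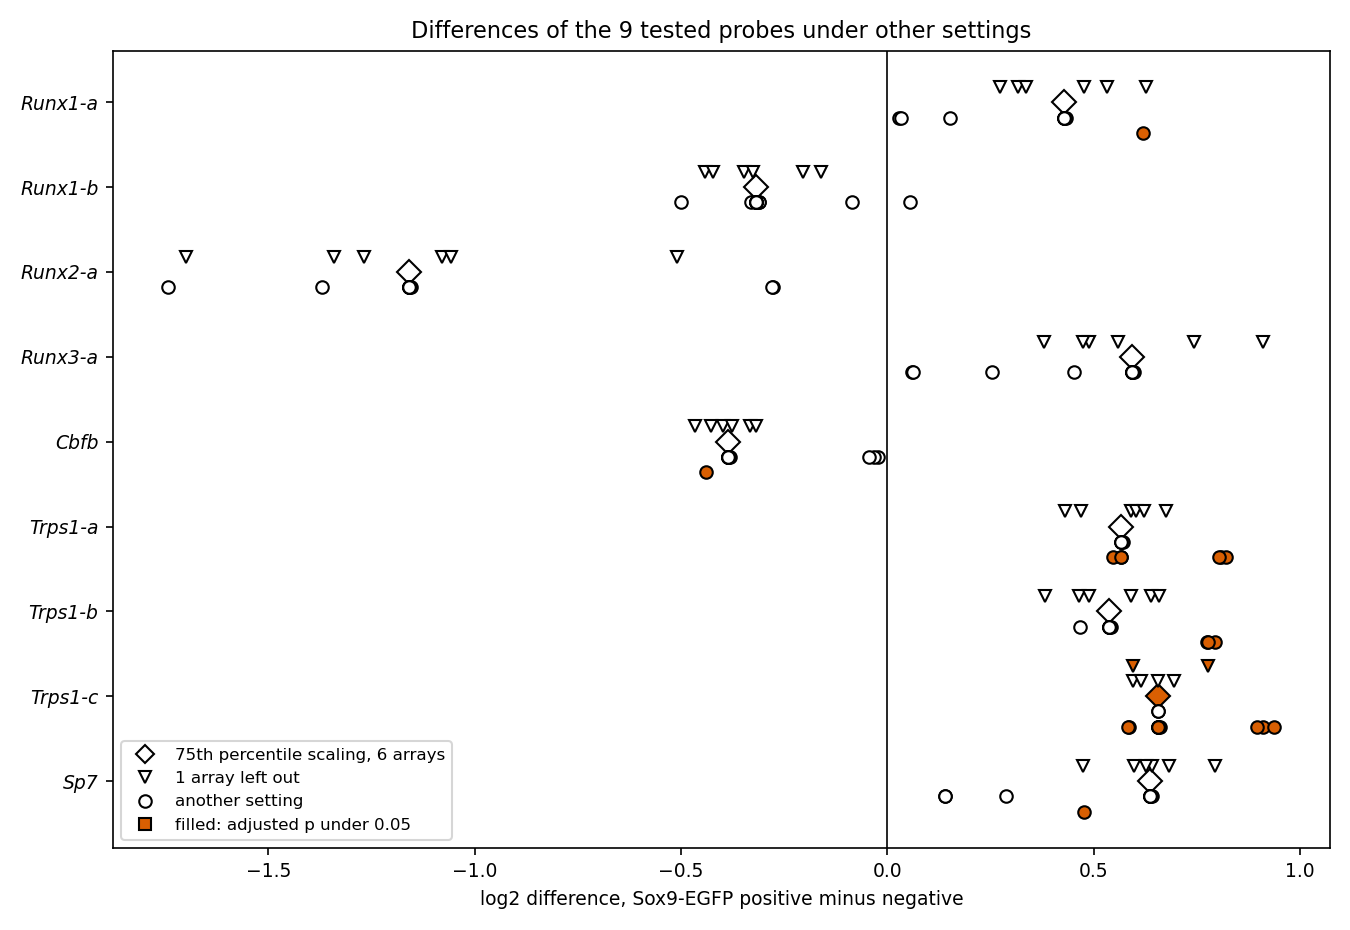
Log2 difference, Sox9-EGFP positive minus negative, of the 9 tested probes under the 75th percentile scaling with 6 arrays (diamonds), with 1 array left out (triangles) and under other settings of normalization, filter, features, moderation, weights and blocks (circles); filled symbols have a limma adjusted p under 0.05. The Trps1 symbols lie between 0.38 and 0.94, Cbfb reaches −0.02, and Runx1-b crosses 0 in the mean of both Runx1 probes.

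The osteoblast genes that RUNX2 and SP7 control later in bone formation were taken as a list of 24, of which 15 were measured. In positive cells 3 of them (20%) were higher and 4 (26.7%) lower, with a median difference of −0.02, where 8.52% of all genes were higher and 18.2% lower. Sparc, the collagen-binding protein osteonectin, was higher by 3.39 ± 0.20 (SE, limma adjusted p = 0.000635). Spp1, the matrix protein osteopontin, was well above background on all 3 positive arrays and 1 negative array, and was higher by at least 8.18-fold with the other negative arrays set to their detection limit (limma adjusted p = 0.0142 on the measured signals). Col1a1, a chain of collagen I, was higher by 1.06 ± 0.21 (adjusted p = 0.0195), while Col1a2, its partner chain, had a difference of −0.06 (adjusted p = 0.860).

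Of the lower osteoblast genes, Alpl, the alkaline phosphatase of mineralising cells, was well above background on 1 of 3 positive arrays and was lower by at least 2.27-fold with the other positive arrays set to their detection limit (limma adjusted p = 0.00538 on the measured signals). Dlx5, a homeobox factor upstream of Runx2, fell by 2.43 (adjusted p = 0.00924), and Atf4, a stress and osteoblast factor, fell by 0.74 (adjusted p = 0.0189). The last, Tnfrsf11b, the decoy receptor osteoprotegerin, was below the detectable signal on all positive arrays (adjusted p = 0.0289) and so faint in negative cells that no fold could be given. Of the 7 osteoblast genes called, these 3 (Spp1, Alpl and Tnfrsf11b) passed the filter on background only through the group in which they were higher. Ibsp, Mmp13, Dmp1, Phex, Sost, Vdr, Tnfsf11, Phospho1 and Bglap, several of them genes of mature bone, did not pass the filter on background. Bglap2 did, well above background on all 3 positive and 3 negative arrays, as did Mepe and Ifitm5, on 2 positive and 3 negative arrays. Their differences were 0.07, 0.12 and −0.02, and none of them passed in limma. Spp1 did not pass without negative replicate 1 (adjusted p = 0.0602) or positive replicate 3 (0.0597), nor Col1a1 without negative replicate 1 (0.0602) or 3 (0.0732), and after quantile normalization Atf4 was at an adjusted p of 0.114. The list's median was 0.27, −0.21 and −0.22 on the slides 1, 2 and 3.

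Hypertrophic cartilage, where RUNX2 and RUNX3 act later, was represented by 9 genes, of which 6 were measured. None passed in limma, where 8.52% of all genes were higher and 18.2% lower in positive cells. An unadjusted p under 0.05 was found for 1 gene, and the median difference was −0.35. That gene was Pth1r, the receptor that holds back hypertrophy, at −0.97 ± 0.33 (SE, adjusted p = 0.0885). Col10a1, the collagen of hypertrophic cells, did not pass the filter on background. The median was −1.18, −0.47 and −0.26 on the slides 1, 2 and 3. On positive replicate 1, the positive array of slide 1, Ihh, Pthlh and Mef2d were at −4.80, −2.89 and −3.82. These values lay below the faintest signal well above background there, −2.73, which limits what the median of slide 1 can show.

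Inhibitors of RUNX2 had calls in both directions. Of 15, 12 were measured, and 2 (16.7%) were higher and 4 (33.3%) lower in positive cells, with a median of −0.24, beside 8.52% and 18.2% over all genes. The same counts were found with slide as a block, without positive replicate 1 and after quantile normalization. Twist1, which binds the Runt domain and blocks RUNX2, fell by 1.92 (limma adjusted p = 0.00118), and its relative Twist2 fell by 2.06 (adjusted p = 0.00307). Hey1, a Notch target, fell by 2.45 (adjusted p = 0.00126), and Msx2, a homeobox repressor, fell by 3.34 (adjusted p = 0.0053). Nkx3-2, a homeobox repressor of Runx2 in cartilage, was higher by 2.75 ± 0.18 (SE, adjusted p = 0.000771), and Zfp521, a zinc finger antagonist of RUNX2, by 0.83 ± 0.17 (SE, adjusted p = 0.0192). Zfp521 did not pass without the negative replicates 1, 2 or 3 (adjusted p of 0.0824, 0.0519 and 0.0744). Twist1 and Msx2 are also among the 9 markers of distal mesenchyme given above, and the list's median was −0.33, −0.36 and −0.16 on the slides 1, 2 and 3.

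**Figure D4:**
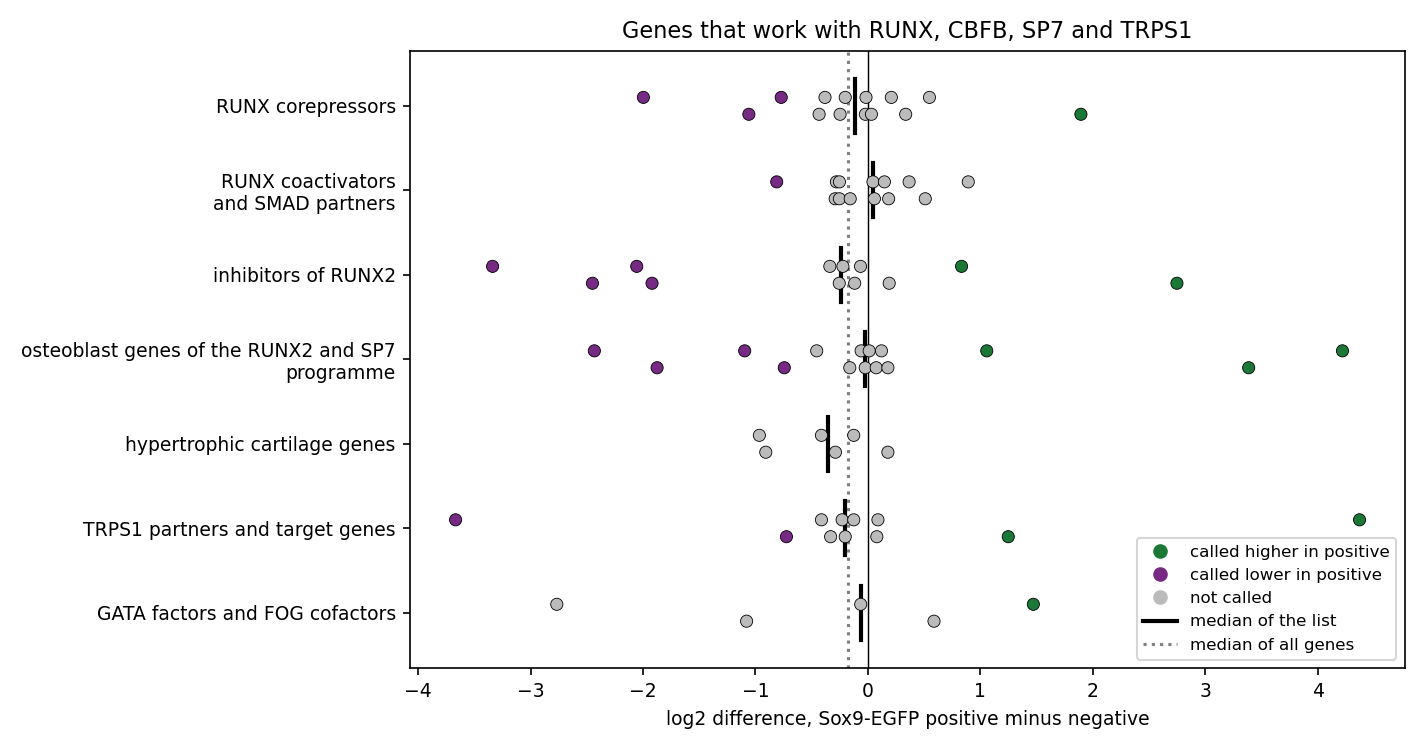
Log2 difference, Sox9-EGFP positive minus negative, of each measured gene (1 point, the brightest probe) in 7 lists of genes that work with RUNX, CBFB, SP7 and TRPS1; green and purple mark genes higher and lower in positive cells at a limma adjusted p under 0.05, black bars the median of a list, and the dotted line the median of all genes at −0.18. The lists' medians lie between −0.35 and 0.04, while single genes reach −3.67 (Wif1) and 4.37 (Sox9).

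The genes of the proteins that RUNX factors recruit were measured in full. Of 14 corepressors, 1 (7.14%) was higher and 3 (21.4%) were lower in positive cells, with a median of −0.11, shares near the 8.52% and 18.2% over all genes. Tle2, a Groucho corepressor that binds the end of RUNX proteins, was higher by 1.89 ± 0.26 (SE, limma adjusted p = 0.00671). Of the other Groucho genes, Tle4 fell by 1.06 (adjusted p = 0.0092) and Tle3 fell by 0.77 (adjusted p = 0.0137). Cbfa2t3, of the family first known from fusions with RUNX1 in leukaemia, was 3.99-fold lower in positive cells (adjusted p = 0.00302). Tle3 did not pass after quantile normalization (adjusted p = 0.126) or when positive replicate 3 (0.0546) or the negative replicates 1 (0.0664) or 3 (0.0587) were left out. Without positive replicate 1, 1 corepressor was higher and 5 were lower, with Tle1 and Sin3a added to the lower ones. The list's median was 0.01, −0.22 and −0.17 on the slides 1, 2 and 3.

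Of 13 coactivators and SMAD partners, 0 were higher and 1 (7.69%) was lower in limma, beside 8.52% and 18.2% over all genes. An unadjusted p under 0.05 was found for 3 of the 13, and the median was 0.04. The acetyltransferase Crebbp had a difference of 0.89 ± 0.26 (SE, adjusted p = 0.0555), and passed after quantile normalization and without positive replicate 1. The differences of Smad1, Smad2, Smad3 and Smad5 lay between −0.29 and 0.06. The list's median was 0.24, −0.23 and −0.02 on the slides 1, 2 and 3.

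Markers of other cells that a sort can hold moved as follows, and their part in the values above was not tested. Ectoderm markers summed to 22.5 to 37.2 in positive and 9.29 to 11.7 in negative samples over 8 genes, with Cdh1 well above background on no array. The brightest were Trp63, with means of 4.10 in positive and 3.09 in negative cells, and Krt18, with means of 3.19 in positive and 0.60 in negative cells. Trp63 and Krt18 made up most of the ectoderm sums, and Trp63 did not pass (limma adjusted p = 0.0590). Epcam (−0.43, limma adjusted p = 0.221) and Krt14 (−0.03, adjusted p = 0.946) did not pass either, and Krt5 did not pass the filter on background. Muscle precursor markers summed to 0.147 to 0.289 in positive and 0.644 to 1.53 in negative samples over 7 genes, with Pax7 and Myf5 well above background on no array, and Lbx1 and Met brightest. Endothelial markers summed to 2.94 to 8.10 in positive and 1.97 to 4.98 in negative samples over 8 genes, with Tek, Tie1 and Emcn well above background on no array, and Kdr and Pecam1 brightest. Neuron and Schwann cell markers summed to 2.14 to 2.50 in positive and 1.90 to 2.04 in negative samples over 8 genes, with Ntrk3 and Isl1 among those well above background on no array, and Tubb3 among the brightest. By calls, 3 of 6 measured ectoderm genes (Krt18, Krt8 and Fgf8) were higher and 3 of 5 muscle genes (Lbx1, Pax3 and Myog) were lower. For the others, 0 of 2 endothelial genes and 1 of 4 neural genes (Sox10, higher) passed in limma. Over all genes 8.52% were higher and 18.2% lower. Pax3 and Myog were well above background on 0 positive arrays and Lbx1 on 1, and Sox10 was on 1 negative array. These muscle genes and Sox10 thus entered the test only through the group in which they were higher. No endothelial gene was under an unadjusted p of 0.05. For comparison, 7 of 10 cartilage genes were higher and 1, Hapln1, was lower, with Sox5 and Col2a1 the brightest. Of 9 distal mesenchyme genes 7 were lower, with Prrx2 and Hoxd13 the brightest. Sox6, well above background on 0 negative arrays, and Hapln1, on 0 positive arrays, also entered the test only through the group in which they were higher.

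The genes most like each member over the 6 arrays were sought among about 11770 genes well above background on all arrays, by Pearson correlation with the member's brightest tested probe. The 6 arrays share the 2 groups, so a high value describes these arrays only. Runx2-a was not well above background on positive replicates 1 and 2, and neither Runx3-a nor Sp7 was on positive replicate 1. The correlations of these 3 probes take in those undetected signals. For Trps1-c the 3 genes were Igfbpl1 (r = 0.997), 9330179D12Rik (r = 0.995) and Tpsb2 (r = 0.994), all 3 of them higher in positive cells, Igfbpl1 by 0.95 (limma adjusted p = 0.0157). For Cbfb they were Golm1, Nde1 and Ppp6c (r = 0.999 each). For Sp7 they were Slc35e2 (r = 0.988), Etnk1 (r = 0.988) and Klhl13 (r = 0.986), and for Runx3-a they were Zfyve28 (r = 0.993), Celf3 (r = 0.991) and Gpc6 (r = 0.988). Runx1-b came closest to Copg2 (r = 0.974), Numa1 (r = 0.967) and Fam13a (r = 0.951), and Runx2-a to 1190005I06Rik (r = 0.967), H2-Q6 (r = 0.962) and Eya4 (r = 0.960). None of the genes named for the members other than Trps1 passed the test between groups. By Spearman correlation the order of the arrays was matched exactly by 505 genes for Cbfb, by 35 for Trps1-c, by 52 for Sp7, by 35 for Runx3-a and by 1 each for Runx1-b and Runx2-a.

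Genes that neighbour the members, with probes within 500 kb, were counted for each locus, and over all probes tested 7.96% were higher and 13.7% lower. Around Sp7, 9 of 52 tested probes were higher and 2 lower in positive cells. Around Cbfb, 3 of 38 were higher and 2 lower, and around Runx3 2 of 18 were higher and 4 lower. Around Runx1, 0 of 5 were higher and 1 lower, and around Runx2 0 of 2 were higher and 1 lower, the plus-strand transcript given above. Trps1 stood alone, with 1 other probe within 500 kb that did not pass the filter.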

How the data were processed

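RNA of 3 Sox9-EGFP positive and 3 Sox9-EGFP negative samples was measured on 1-colour (Cy3) Agilent arrays. Per the file headers, the authors' processed intensity of each spot comes from Feature Extraction 10.7.3.1, which subtracts background and corrects spatial trends within an array, with no scaling across arrays. In the deposited series matrix, the log2 values have columns that share a median of 6.41 and that correlate at 0.997 to 0.998 with the log2 mean signal, so they are log2 intensities equalised between arrays, and their background correction is not stated.

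The log2 of the array's 75th percentile, over 59305 spots and without the 3671 control spots, was subtracted from that of each processed intensity. Spots of the same probe were averaged. Probes well above background throughout either group were kept, and 17 with outlier spots were dropped, leaving 26473 of 55681. The comparison used limma 3.58.1 under R 4.3.3 (lmFit, eBayes, Benjamini-Hochberg adjustment over all tested probes, threshold 0.05), and probes of 1 gene with diffSplice. An exact permutation test of 3 against 3 arrays cannot go below a p of 0.1, so a call depends on the variance pooled over probes in limma. The number of arrays limits the precision. The fit was tested on simulated data.

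Genes other than the members were represented by their brightest tested probe and named through RefSeq GRCm38.p6 by accession (26300 probes), symbol (2044) or older symbol (355), with 26982 probes unnamed. Coordinates are in mm9, as the files give them.

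The members and lists were chosen with earlier results of these data known. Genes were named by rule: the members, Sox9, up to 3 called genes per list and direction, the 2 brightest of each marker list, the 3 genes most like each member, and up to 4 called neighbours within 500 kb. Further genes named to complete a count, among them Tnfrsf11b, Col1a2, Pf4, Tyrobp and Cx3cr1, were chosen after their values were seen. A few genes that the rule would name are not reported here. The lists were RUNX corepressors, RUNX coactivators and SMAD partners, inhibitors of RUNX2, osteoblast genes, hypertrophic cartilage genes, TRPS1 partners and target genes, GATA factors and FOG cofactors, and markers of 7 cell types.

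Deviations of samples with the same replicate number had r of −0.27, −0.46 and 0.29, of mixed sign, and the numbers were not used as pairs. Those of the same slide had r of 0.56, 0.41 and 0.24, all above 0, and slide was fitted as a block. The lowest r of a slide, 0.24, was below the 0.29 of replicate 3, so these values do not settle the choice. Further alternatives were quantile normalization alone or after normexp background correction (offset 50), median centring, the series matrix values, no filter, a filter on all 6 arrays, the brightest probe or the mean of the probes of a gene, trend and robust moderation, array weights, a replicate block, a 2-fold limit, a threshold of 0.01, and fits with 5 arrays. For the lists, the slide block and the fit without positive replicate 1, and for the diffSplice test the replicate block, were chosen after seeing the data, as were the bounds with 1 array left out or with undetected arrays at the detection limit.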

Additional observations from a re-analysis of the deposited data

How the results depend on the processing

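Over all probes, the number called (5731) was 3795 after quantile normalization, 1350 without the filter on background, 9598 with array weights, 1370 with the replicate block, 1718 at an adjusted p of 0.01 and 2335 with a 2-fold limit, and 2027 to 6449 with 1 array left out. Among the called probes 36.8% were higher in positive cells, against 44.4% after quantile normalization, 43.5% after normexp and 64% without the filter, where the median of all probes was at 0.34. The number of member probes called (1) was 3 after normexp, after quantile normalization and in the series matrix values, 2 with trend and robust moderation and with slide as a block, 5 with array weights, 0 without the filter, with the replicate block, at 0.01 and with the 2-fold limit, and 0 to 1 with 1 array left out. With the replicate block Trps1-c had an adjusted p of 0.111, and without the filter of 0.186. The count of 0 probes unlike the others of their gene was found with slide as a block, with the replicate block and with each array left out. Of 170 values of member probes under alternatives, 149 kept their direction and side of the threshold, 12 gained a call, 8 lost it and 1 reversed, Runx1-b at 0.055 in the mean of both probes. Among the brightest markers, Kdr (0.36) turned to −0.022 with array weights and ranged over −0.14 to 0.66 with 1 array left out, reversing without positive replicate 1 and without negative replicate 3 (−0.015). Pecam1 (−0.11) turned to 0.062 with array weights and ranged over −0.31 to 0.15, reversing without positive replicate 2 (0.0038) and without negative replicate 2. Tubb3 (−0.0034) turned to 0.0018 with median centring, 0.024 after normexp and 0.027 in the series matrix values, and ranged over −0.11 to 0.11, reversing without positive replicate 2 and without negative replicate 1 (0.058). None of these 3 genes passed in those fits, and the cause was not tested for any of these changes. Signals of the faint probes of Runx2, Runx3 and Sp7 lie close to the detection limit of their arrays or below it, which limits what their differences can show.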

Other observations

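Of the called neighbours within 500 kb of the members, at most 4 probes a locus are given, the nearest ones. Around Sp7, Mfsd5, a membrane transporter gene, fell by 0.79 (limma adjusted p = 0.0235) and Pcbp2, an RNA-binding protein gene, fell by 0.58 (adjusted p = 0.0192), while a pair of probes of a long intergenic RNA were higher by 0.49 and 0.63. Around Cbfb, B3gnt9-ps, Fhod1 and Hsd11b2 were higher by 0.84, 0.68 and 2.14, and Ctcf, which encodes a chromatin insulator protein, fell by 0.52 (adjusted p = 0.0278). Around Runx3, Clic4 fell by 0.44 and 2 probes of Srrm1 fell by 0.47 and 0.50, and the transcript ENSMUST00000102549 was higher by 1.31 (adjusted p = 0.00509). Around Runx1, Mrps6 fell by 0.72 (adjusted p = 0.0197). Of these, Clic4, both Srrm1 probes, Mrps6, Ctcf, Mfsd5, Pcbp2, B3gnt9-ps and both probes of the intergenic RNA did not pass after quantile normalization. With slide as a block, Clic4 (limma adjusted p = 0.0679), both Srrm1 probes (0.0657 and 0.0567), B3gnt9-ps (0.0642) and the first probe of the intergenic RNA (0.0616) did not pass. Of the probes in this paragraph, ENSMUST00000102549 passed with each of the 6 arrays left out in turn, and each of the others lost its call in at least 1 of those fits.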
